A study of Mus musculus with 6 samples.

Results

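Bile acid transport in the small intestinal epithelium was followed through 7 genes, taken by symbol from the 55416 Ensembl genes of an RNA-Seq table of mouse organoids. All 7 were found in the table. They were Slc10a2, Fabp6, Slc51a, Slc51b, Abcc3 and Abcc2, which encode the proteins that take up, bind and export bile acids, and Fgf15, which encodes a hormone of the bile acid feedback loop. RNA was sequenced from organoids grown from crypts of duodenum and jejunum of wild type C57BL/6 mice, which were cultured for 5 days with 50 μg/ml low-density lipoprotein (LDL) or with PBS as the control. Each of 3 mice gave 1 LDL-treated and 1 PBS-treated library, so that the treatments were compared within mice. The labels name no ileal tissue, the usual site of high expression of several of these genes, and no added bile acid. The genotype of all samples is given as WT, but the animal identifier of mouse 3 has another prefix than those of mice 1 and 2, which start with WT. Calls without mouse 3 are given beside the results.

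Bile acids are made from cholesterol in the liver, released into the gut and recovered mainly in the ileum. The apical carrier encoded by Slc10a2 takes them up with sodium, Fabp6 binds them in the cytosol, and the heterodimer of Slc51a and Slc51b, with Abcc3, releases them across the basolateral membrane. Bile acids bind the nuclear receptor FXR (Nr1h4), which pairs with RXR and induces Fgf15, Fabp6, Slc51a, Slc51b and Nr0b2, and FGF15 then lowers bile acid synthesis in the liver. Abcc2 is an apical pump for conjugated compounds.

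Reads on genes were 22061545 to 31073360 per library. The LDL-treated library of mouse 1 stood apart, with reads on 35781 genes, against 29285 to 32751 in the others, and 7.62% of its reads on its most abundant gene, against 2.6 to 3.32%. Epithelial identity was plain in every library: 7 epithelial markers summed to 82728 to 105514 normalized counts with LDL and 72945 to 77999 with PBS, whereas 12 stromal, endothelial and immune markers summed to 49.1 to 127 and 63.5 to 117. None of the 12 was called, and 9 were below the test's minimum level. Enterocyte genes shifted unevenly with LDL. Of 10, 5 were higher, among them Alpi (log2 ratio 2.13) and Mttp (0.95), and 1 was lower, and their summed normalized counts were 67901 to 103753 with LDL and 46614 to 84979.7 with PBS. Crypt base markers went both ways, with Ascl2 higher (1.22) and Olfm4 (-1.17) and Smoc2 (-0.79) lower among 5. Of 8 proximal small intestine markers, Fabp1, Cybrd1 and Slc40a1 were higher and Lct was lower. Of 5 hepatocyte markers, Ttr (-2.22) and Serpina1a (-1.43) were lower, and the list summed to 141 to 227 with LDL and 484 to 686 with PBS. Without mouse 3, no crypt base or hepatocyte marker was called. Enterocyte calls were then 3 higher and 1 lower, and so were the proximal calls. Without mouse 1, no crypt base marker was called lower. By the same test without the pairing by mouse, 1 enterocyte gene and 3 proximal markers were higher, 1 hepatocyte marker was lower, and no crypt base marker was called. The part of these shifts in the results below was not tested, and in bulk RNA more cells of a type and more RNA per cell cannot be told apart.

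Of the 7 genes, 4 rose in LDL-treated organoids, namely Slc10a2, Slc51a, Abcc3 and Fgf15, and none fell. Fgf15 reached the minimum level for testing only through the LDL-treated libraries, so that its call could go 1 way only and the count is a description. Calls were made at an adjusted p-value under 0.05 (limma with the mouse as a block, adjusted by the Benjamini-Hochberg method over 18459 genes) and a change of more than 1.5-fold. By the same rule, 5.68% of all genes tested were called higher and 3.46% lower, and the median of the log2 ratio of LDL to PBS over all genes was -0.016. By unadjusted p under 0.05, 5 of the 6 tested members were higher and none lower. The share of all genes at this unadjusted threshold is not given, here or in the fits below, so such counts are descriptions only. In edgeR with the mouse as a block, the same number was called higher and lower as in limma. Of the other 3, Abcc2 passed the p-value but not the fold (8.27% of all genes passed the p-value and were higher at any fold), Slc51b did not pass, and Fabp6 was below the minimum mean of 10 and was not tested.

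A normalized count is a number of reads divided by the size factor of its library, and levels of different genes are compared only per kilobase of exon. In PBS-treated organoids, Abcc2 had the highest level, with 766 ± 155 normalized counts per kilobase (SD, n = 3), followed by Abcc3 with 309 ± 16.1, Slc51b with 52.1 ± 19.6 and Slc51a with 18.7 ± 2.19. Fabp6 (9.89 ± 8.35) and Slc10a2 (9.83 ± 2.57) came next, and Fgf15 was last with 1.0 ± 0.882. The libraries of neighbours in this order did not overlap, except those of Slc51a with Fabp6 and of Fabp6 with Slc10a2. The 2 ABC pumps were therefore the abundant members in these proximal organoids, and the genes of the ileal uptake route were near the lower end. With LDL, the top of the order was kept, at 1079 ± 68.1 for Abcc2 and 607 ± 174 for Abcc3. Slc51b (39.7 ± 17.4), Slc51a (39.5 ± 11.2) and Slc10a2 (26.9 ± 16.0) overlapped, and so did Fabp6 (8.18 ± 3.6) with Slc10a2 and with Fgf15 (5.99 ± 3.6).

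**Figure D1:**
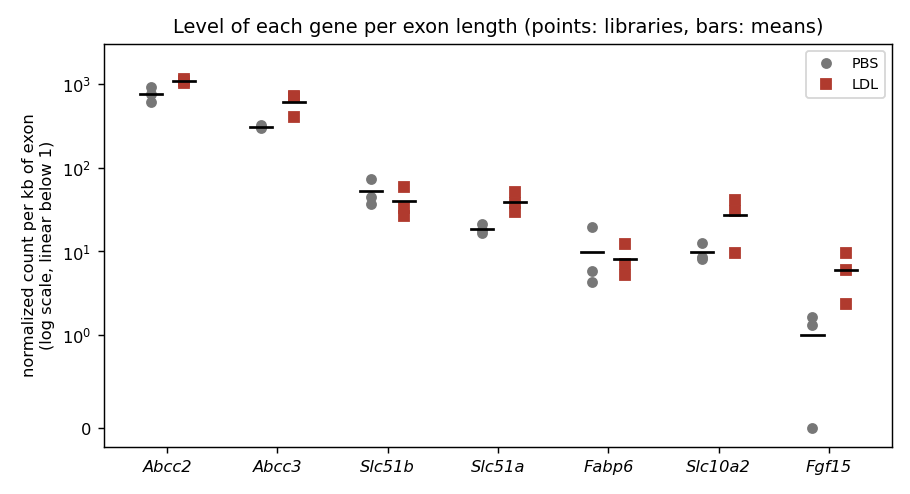
Normalized count per kilobase of exon (y axis, logarithmic above 1 and linear below) of the 7 genes, ordered by their mean in PBS-treated organoids; grey circles are PBS-treated and red squares LDL-treated libraries, and bars are means of 3. Abcc2 and Abcc3 lie above all others in both groups, and Fgf15 has 1 PBS-treated library at 0.

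Slc10a2 encodes the apical sodium-dependent bile acid transporter, the entry step of the route, and lies on chromosome 8 from 5133219 to 5155351 of GRCm39. Its normalized counts were 53.1, 36.0 and 33.4 in the PBS-treated organoids of mice 1, 2 and 3 and 171, 40.0 and 125 in the LDL-treated ones. The treated value was far above the control in mice 1 and 3 but hardly in mouse 2, whose LDL-treated value lay within the range of the PBS-treated group. The group values were 112 ± 66.3 with LDL and 40.8 ± 10.7 with PBS (SD, n = 3), and the log2 ratio of LDL to PBS was 1.23 (SE 0.33, limma, adjusted p = 0.0431). Within mice, the treated value was 3.22-fold the control in mouse 1 and 3.73-fold in mouse 3, whereas the ratio in mouse 2 was 1.11, with a 95% counting interval of 0.679 to 1.84. The call was the least firm of the 4: it was lost without mouse 1 (log2 ratio 1.01, limma, adjusted p = 0.154), without mouse 3 (0.91, limma, adjusted p = 0.342) and under quantile normalization (limma, adjusted p = 0.052).

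The promoter of Slc10a2 is shown because it holds a match to the motif of AP-1, the factor formed by Fos and Jun. The window runs from 250 bases before to 50 after the start of the RefSeq gene (chr8:5105238-5105537 of GRCm38.p6, minus strand). Capitals mark the match to TGANTCA, which starts 118 bases before the start.
Slc10a2: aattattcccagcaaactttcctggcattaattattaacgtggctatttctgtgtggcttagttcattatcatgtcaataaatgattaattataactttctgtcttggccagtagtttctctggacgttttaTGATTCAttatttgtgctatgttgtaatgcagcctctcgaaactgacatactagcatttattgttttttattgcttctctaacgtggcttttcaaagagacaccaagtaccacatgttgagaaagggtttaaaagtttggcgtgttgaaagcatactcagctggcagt
A match to these letters was found in 7.79% of 32544 such mouse windows. RefSeq windows were found for 5 of the 7 genes (all but Abcc3 and Fgf15), and 2 of the 5, Slc10a2 and Slc51b, held this match. Fos and Jun themselves were called higher with LDL (log2 ratios of 1.25 and 0.61), though for both the treated and control libraries overlapped. Any link to Slc10a2 or Slc51b was not tested.

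Fabp6 encodes the ileal bile acid binding protein and lies on chromosome 11 from 43486872 to 43492469. It had only 3 to 11 reads per library, and its normalized counts were 3.06, 13.7 and 4.07 in the PBS-treated organoids of mice 1, 2 and 3 and 8.54, 3.64 and 5.02 in the LDL-treated ones. The direction differed between mice, with a higher value after LDL in mice 1 and 3 and a lower value in mouse 2. In the fit without a minimum level, the log2 ratio was -0.061 with a 95% interval of -1.45 to 1.33, so that a change of more than 2-fold in either direction lay within the interval at this depth. The within-mouse ratios were 2.79, 0.266 and 1.23, with counting intervals of 0.636 to 16.7, 0.0618 to 0.898 and 0.313 to 5.11.

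The promoter of Fabp6 is shown because it was the only one of the 5 windows with a match to the inverted repeat bound by FXR and RXR. This motif, known as IR-1, is a pair of AGGTCA copies that face each other 1 base apart, and it was searched on both strands with up to 2 mismatches. Capitals in the window (chr11:43601513-43601812 of GRCm38.p6, minus strand) mark matches at 222 and 142 bases before the start, and a match to TATAAA on the other strand at 29 bases before it.
Fabp6: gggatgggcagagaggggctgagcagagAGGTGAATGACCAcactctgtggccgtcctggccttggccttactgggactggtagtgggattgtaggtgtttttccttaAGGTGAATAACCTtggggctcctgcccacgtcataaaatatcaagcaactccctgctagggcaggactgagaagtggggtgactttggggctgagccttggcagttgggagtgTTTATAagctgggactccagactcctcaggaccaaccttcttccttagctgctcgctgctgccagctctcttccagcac
Such a match was present in 1.14% of the 32544 windows.

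The other motifs, chosen like these after the values of the genes had been seen, were the same 6 letters repeated in 1 direction after 1 base (DR-1, for PPAR and RXR) and after 4 bases (DR-4, for LXR and RXR), each with up to 2 mismatches, and the LRH-1 site CAAGGTCA and the site of Gata4 and its relatives, AGATAA, with none, on both strands. They were found in 3.87%, 3.03%, 1.53% and 11.2% of all windows, and the TATA box in 13.6%. Of the first 4 of these motifs, the 5 windows held only a DR-4 match, in Slc51b, and the windows of Slc51a and Abcc2 held no match to any of the 7 motifs. A match describes letters in this window only and does not show that a factor binds there.

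Export across the basolateral membrane was represented by Slc51a, Slc51b and Abcc3, and the partners of the Slc51 heterodimer behaved differently. Slc51a, on chromosome 16 from 32293322 to 32306842, encodes the alpha subunit. Its normalized counts were 61.2, 77.0 and 66.8 in the PBS-treated organoids of mice 1, 2 and 3 and 107, 188 and 138 in the LDL-treated ones. All treated values lay above all control values, and the gene was higher with LDL in each mouse, 1.75-, 2.44- and 2.07-fold in mice 1, 2 and 3. The group values were 145 ± 40.9 and 68.4 ± 8.02 (SD, n = 3), and the log2 ratio of LDL to PBS was 1.04 (SE 0.17, limma, adjusted p = 0.0064). Without mouse 3 it was 1.04 and not called (limma, adjusted p = 0.107). Slc51a shares 921 exonic bases with Pcyt1a on the other strand, and the strand setting of the counting is not given in the sources used here, so reads of that stretch cannot be assigned. Pcyt1a, a gene of phosphatidylcholine synthesis, had 1290.2 to 1398 normalized counts with LDL and 845 to 990.4 with PBS, a log2 ratio of 0.57.

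Slc51b encodes the beta subunit, without which the alpha subunit does not reach the membrane, and lies on chromosome 9 from 65319995 to 65330597. Its normalized counts were 39.8, 79.5 and 48.0 in the PBS-treated organoids of mice 1, 2 and 3 and 35.4, 63.7 and 28.4 in the LDL-treated ones. In all 3 mice the LDL-treated value was below the PBS-treated one, but the groups overlapped widely, at 42.5 ± 18.7 and 55.8 ± 21.0 (SD, n = 3). The log2 ratio of -0.41 had a 95% interval of -0.91 to 0.10 and was not called (limma, adjusted p = 0.256, and 0.734 without mouse 3). Only 29 to 70 reads lay on the gene in any library. In mouse 3, the ratio of LDL to PBS was 0.592, with a counting interval of 0.376 to 0.918, and the intervals of mice 1 and 2 included no change.

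The balance between the subunits was therefore compared directly. The ratio of Slc51a to Slc51b, each per kilobase of exon, was 0.45, 0.283 and 0.406 with PBS and 0.887, 0.864 and 1.42 with LDL in mice 1, 2 and 3. Every treated ratio was above every control ratio, by 2.76-fold on average (1.06 ± 0.314 against 0.38 ± 0.0864, SD, n = 3; exact two-sided permutation test, p = 0.1, the smallest value possible for 3 against 3 unpaired libraries, while exchange within the 3 mice allows none below 0.25). This ratio was chosen after the values of both genes had been seen.

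Abcc3, on chromosome 11 from 94233874 to 94283823, encodes the basolateral pump MRP3. Its normalized counts were 1952, 1763 and 1823 in the PBS-treated organoids of mice 1, 2 and 3 and 4296, 2427 and 4157 in the LDL-treated ones. The control values were close together, all treated values were above them, and mouse 2 again showed the smallest rise, at 1.38-fold against 2.2- and 2.28-fold in mice 1 and 3. The group values were 3627 ± 1041 and 1846 ± 96.3 (SD, n = 3), giving a log2 ratio of 0.93 (SE 0.14, limma, adjusted p = 0.00489). Leaving out mouse 3 gave 0.80 and no call (limma, adjusted p = 0.101). With 1419 to 4972 reads per library, counting error was small: the interval of the ratio in mouse 2 was 1.29 to 1.47, and that in mouse 1 was 2.08 to 2.33. Abcc3 shares 622 exonic bases with an antisense noncoding gene, Gm51871, which is not among the genes counted. As for Slc51a, reads of the shared stretch cannot be assigned.

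Abcc2, on chromosome 19 from 43770631 to 43829179, encodes the apical pump MRP2 and was the most abundant member. Its normalized counts were 6681, 8006 and 5305 in the PBS-treated organoids of mice 1, 2 and 3 and 10005, 9344 and 8822 in the LDL-treated ones. The groups did not overlap, and every mouse had a higher value with LDL. The mean was 9390.2 ± 593 with LDL and 6664 ± 1351 with PBS (SD, n = 3), and the log2 ratio of 0.51 (SE 0.11) passed the p-value (limma, adjusted p = 0.018) but stayed under 1.5-fold. Within mice, the ratios were 1.5, 1.17 and 1.66 in mice 1, 2 and 3. Without mouse 2 the log2 ratio was 0.66 and the gene was called. The ratio was 0.48 without mouse 1 and 0.40 without mouse 3 (limma, adjusted p = 0.0654 and 0.251). With no block, the adjusted p from limma was 0.129.

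Fgf15 is the secreted output of intestinal FXR and lies on chromosome 7 from 144450268 to 144454690. It was barely detected in control organoids: its reads were 5, 0 and 5 in the PBS-treated libraries of mice 1, 2 and 3 and 24, 8 and 22 in the LDL-treated ones. In normalized counts this was 3.06 ± 2.7 with PBS and 18.3 ± 11 with LDL (SD, n = 3), and the groups did not overlap. The log2 ratio was 2.43 (SE 0.42, limma, adjusted p = 0.0084), the largest of the 6 members tested, in a test that it entered only through the treated libraries. Its size depends on the pseudocount, and was 2.81 with 0.5 and 1.47 with 5 in place of 1. Within mice, the ratio was 5.74 in mouse 1 (counting interval 2.15 to 19.2) and 4.52 in mouse 3 (1.67 to 15.3). In mouse 2, where the control had no read, the counting interval began at 1.25 and had no upper end. Counted against 3 control reads in place of 0, the ratio in mouse 2 was 1.95. Without mouse 3 the estimate was 2.68 and not called (limma, adjusted p = 0.0822).

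The mean of Fgf15 over all libraries was 10.7, just above the minimum of 10, and the gene passed this minimum only through the treated libraries. Among 2200 genes with a mean of 10 to 20, 4.64% were called higher and 1.14% lower, and their median log2 ratio was 0.10. Among treated libraries, Fgf15, Slc10a2 and Abcc3 were each highest in mouse 1 and lowest in mouse 2, as was the number of genes with reads. The part of that number in these results was not tested. The antisense noncoding gene Gm26793 shares 761 exonic bases with Fgf15 and had 6.1 normalized counts in the LDL-treated library of mouse 1 and at most 0.814 in any other.

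**Figure D2:**
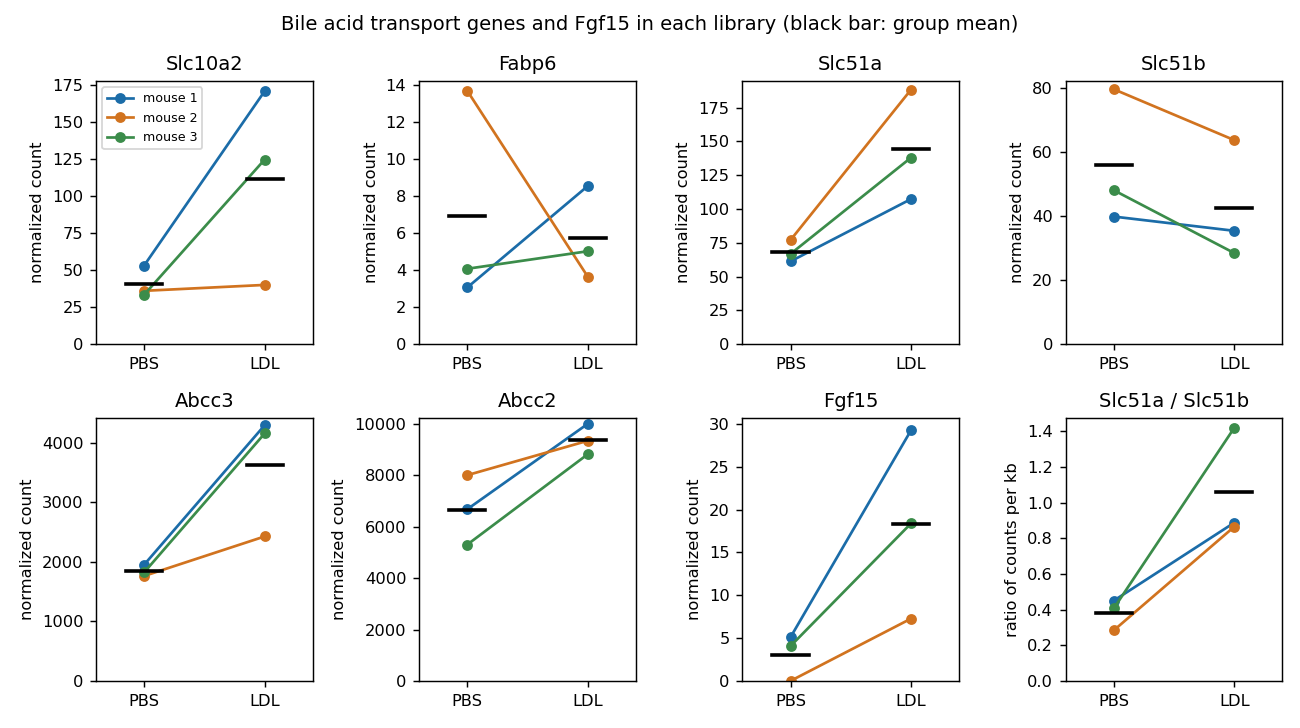
Normalized counts of the 7 genes (y axes, linear from 0) in PBS- and LDL-treated organoids, with the libraries of a mouse joined by a line and group means as black bars; the last panel shows the ratio of Slc51a to Slc51b per kilobase of exon. Slc51a, Abcc3, Abcc2 and Fgf15 are higher with LDL in all 3 mice with no overlap of groups, Slc10a2 is flat in mouse 2, and Slc51b is lower in all 3 mice within overlapping groups.

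Non-overlap of the groups, all treated above all control values, was seen for Slc51a, Abcc3, Abcc2 and Fgf15 (tested only through its treated libraries), and for 11.9% of all genes tested. Taken alone, such a gene has p = 0.1 in an exact permutation test, two-sided, and 3 against 3 unpaired libraries allow no smaller value (0.25 for 3 pairs). In limma, all 4 calls were lost without the pairing by mouse, although all 4 were made by DESeq2 with no mouse block. With no mouse block, the adjusted p-values from limma were 0.233 for Slc10a2, 0.0779 for Slc51a, 0.0768 for Abcc3 and 0.15 for Fgf15, so that none was called, although 5 members were higher at an unadjusted p under 0.05. In that fit 0.878% of all genes were called higher and 0.395% lower. With neither the block nor the minimum level, limma called 2 members higher. Without mouse 3 none of the members was called, 4 were higher at an unadjusted p under 0.05, and 1.44% of all genes were called higher and 0.417% lower. Without mouse 1, Slc51a, Abcc3 and Fgf15 were called higher (all genes, 4.11% higher and 1.77% lower), and without mouse 2 those 3, Slc10a2 and Abcc2 (all genes, 8.69% higher and 7.3% lower). In fits without the minimum level, no member was called when any 1 of the mice was left out.

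**Figure D3:**
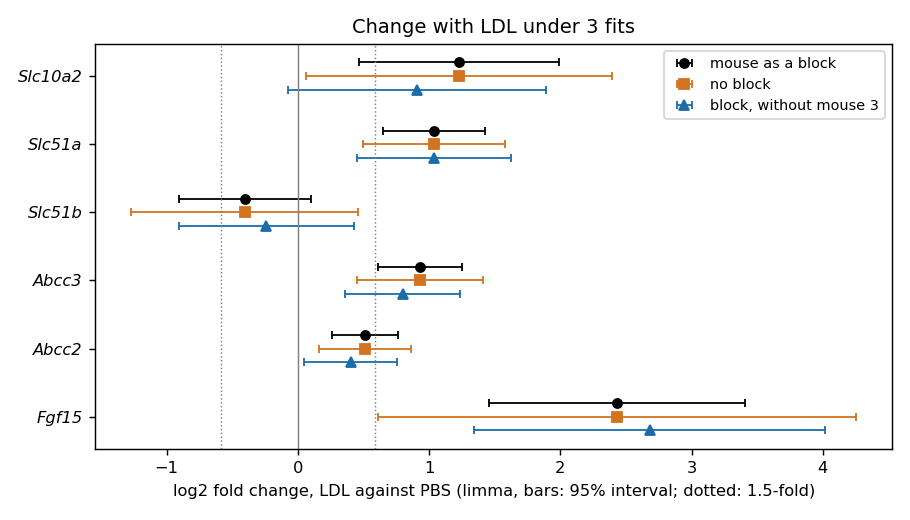
Log2 fold change of LDL against PBS (x axis) for the 6 members tested, from limma with the mouse as a block (black), with no block (orange) and with the block and without mouse 3 (blue); bars are 95% intervals, not adjusted for the number of genes, and dotted lines mark 1.5-fold. Estimates for Slc10a2, Slc51a, Fgf15, Abcc2 and Abcc3 stay to the right of 0 under all 3 fits. Of their intervals, only that of Slc10a2 reaches below 0, and only without mouse 3. The estimates for Slc51b stay to the left of 0, with intervals that include 0.

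The receptors and partners that act on these genes were followed in a list of 11, of which 9 were tested. Nr1h4, the gene of FXR, rose, and Nr5a2, which encodes LRH-1, a receptor acting on several bile acid genes, fell. Nr1h4 had normalized counts of 343, 461 and 246 in the PBS-treated organoids of mice 1, 2 and 3 and 559, 679 and 541 in the LDL-treated ones, which did not overlap (log2 ratio 0.80, limma, adjusted p = 0.00607). Nr5a2 had 849 ± 319 with LDL and 1514 ± 283 with PBS (SD, n = 3), with a log2 ratio of -0.88 (limma, adjusted p = 0.00222), again without overlap. Without mouse 3 neither was called (limma, adjusted p = 0.101 and 0.0668). The RXR partner Rxra had a log2 ratio of -0.38 (limma, adjusted p = 0.041), under 1.5-fold. The most abundant genes of the list, the histone methyltransferase gene Kmt2d (0.18) and the vitamin D receptor gene Vdr (-0.44), were not called. Over the 9 genes the median log2 ratio was -0.36.

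Of 14 other genes known to respond to FXR, 11 were tested, 4 rose and none fell in limma or edgeR (1 was lower at an unadjusted p under 0.05). Car12, a carbonic anhydrase gene, had 1144 ± 325 normalized counts with LDL and 465 ± 167 with PBS (SD, n = 3), a log2 ratio of 1.33. It was called in each fit that left out a mouse at the minimum mean of 10, and in none without that minimum. Nos2, which encodes the inducible nitric oxide synthase, had 77.5 ± 24.0 and 26.0 ± 5.3 (SD, n = 3) and rose by 1.51 on the log2 scale. Il18, the gene of an epithelial cytokine, and Sqstm1, that of an autophagy receptor, had log2 ratios of 1.23 and 0.59. The median of the list was 0.55. Of its most abundant members, Sdc1, a syndecan gene, had 0.55 and Cyp3a11, a drug and bile acid hydroxylase gene, -0.26, and neither was called. Nr0b2, the gene of the corepressor SHP and a classical FXR target, is named after its values were seen. It had 10.4 ± 4.43 with LDL and 12.9 ± 4.15 with PBS (SD, n = 3) and a log2 ratio of -0.32 (limma, adjusted p = 0.573), with lower values after LDL in all 3 mice. In limma at the minimum mean of 10, none of the 4 was called with no mouse block and Car12 alone was called without mouse 3. Without mouse 1, the calls of Il18 (limma, adjusted p = 0.0887) and Sqstm1 (log2 ratio 0.55, under 1.5-fold) were lost. DESeq2 with no mouse block called 4 genes of the list.

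Among 13 transcription factors known to act on ileal genes, Fos, Jun and Ppard rose and none fell in limma or edgeR (1 was lower at an unadjusted p under 0.05). Ppard encodes PPARδ, and its log2 ratio was 0.76 (limma, adjusted p = 0.00777). The most abundant members were not called, with -0.14 for Gata4, which holds down ileal genes in the proximal gut, -0.20 for Hnf4a and -0.23 for Cdx2. Cdx1, a further intestinal identity factor that is named after its values were seen, had 1423 ± 278 with LDL and 2092 ± 69.0 with PBS (SD, n = 3), without overlap. Its log2 ratio of -0.58 passed the p-value (limma, adjusted p = 0.0144) but not the fold, it was called lower without mouse 2, and without mouse 3 the adjusted p from limma was 0.171. In limma, the 3 calls were lost without mouse 3 and with no block, whereas DESeq2 with no block called 2 genes of the list.

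Other exporters of the ABC family moved in both directions, with 3 of 9 tested genes higher and 1 lower. Abcc4, whose product exports cyclic nucleotides and bile acids, had a log2 ratio of 1.09 (limma, adjusted p = 0.00115), with 1411 ± 567 normalized counts with LDL and 636 ± 147 with PBS (SD, n = 3). Abcc5 (0.83) and Abcc1 (0.69), exporters of nucleotides and of glutathione conjugates, rose too, and Abcc6, an exporter linked to ectopic calcification, fell by 1.29 on the log2 scale. The abundant Abcb1a (0.36) and Cftr (-0.38) were not called. Abcc4 was called without mouse 3 (limma, adjusted p = 0.0461), and the others were not.

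Of 12 further carriers of the SLC10 and OATP families, 8 were tested. Slco3a1 rose (log2 ratio 1.15) and Slco2b1, an intestinal uptake carrier for organic anions, fell (log2 ratio -0.96), and treated and control libraries overlapped for both. The other abundant members, Slc10a7 (-0.23) and Slco4a1 (-0.29), were not called. In limma, neither call was made with no block or without mouse 3, and DESeq2 with no block called 1 gene of the list.

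Of 12 bile acid synthesis genes, 5 were above the minimum level. Cyp7a1, the rate-limiting enzyme in liver, had at most 3.34 normalized counts in any library. Cyp39a1, an oxysterol hydroxylase gene, had 96.8 ± 14.4 normalized counts with LDL and 214 ± 36.3 with PBS (SD, n = 3). Its log2 ratio was -1.13, and it fell with the block, with no block and without mouse 3 (limma, adjusted p = 0.00224, 0.0353 and 0.0462). The peroxisomal genes Scp2 (-0.15), Acox2 (0.18) and Amacr (-0.43) were not called. On the receptor side of FGF15, Fgfr4 rose (log2 ratio 0.62, limma, adjusted p = 0.0216) and Fgfr2 (0.14) and Fgfr3 (-0.70) were not called. The call of Fgfr4 was lost with no block and without any 1 of the mice.

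**Figure D4:**
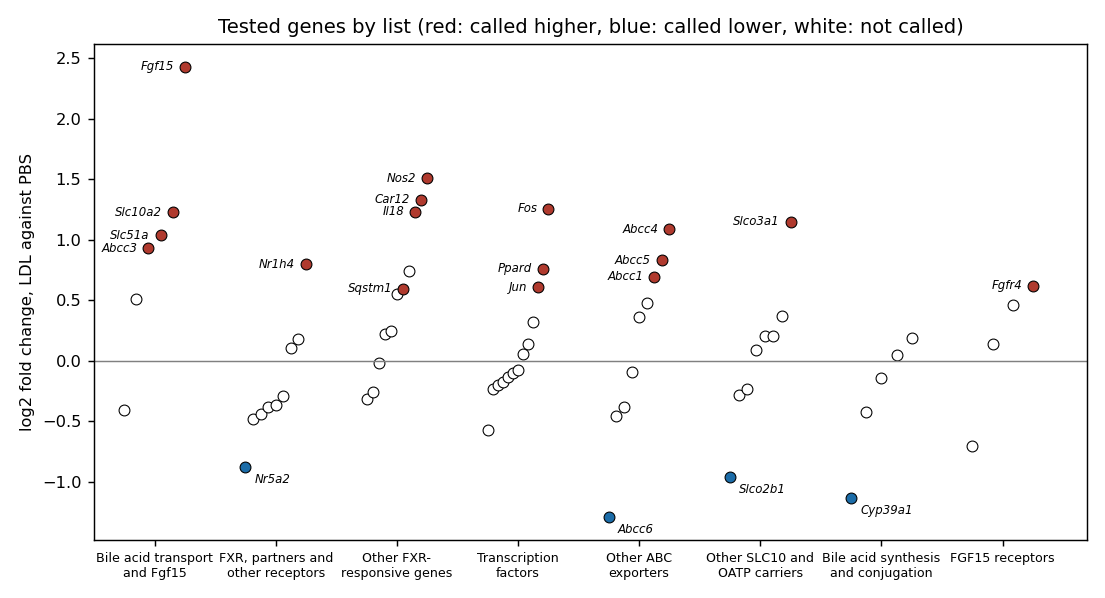
Log2 fold change of LDL against PBS (y axis) for the tested genes of each list (x axis), from limma with the mouse as a block; red points were called higher, blue points lower, white points not called, and only called genes are named. Among the genes shown, Fgf15, which passed the minimum level only through the treated libraries, has the highest value and Abcc6 the lowest.

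Genes with the most similar profile over the 6 libraries were ranked by Pearson's r of log2 values, given as a description: the 6 libraries share 3 mice and 2 treatments, and 18459 genes were ranked. The closest to Slc10a2 were Nlrc4 (r = 0.998), Il4ra (r = 0.997) and Map6 (r = 0.996), and those to Abcc3 were Gm37752 (r = 0.998), Ccdc71l (r = 0.997) and Ahnak (r = 0.997). Slc10a2 and Abcc3, both with their smallest within-mouse ratio in mouse 2, had r = 0.95 with each other. For Slc51a they were Acaa1b (r = 0.997), Reg1 (r = 0.99) and Acot3 (r = 0.99), and for Slc51b they were Zfp654 (r = 0.99), Gbe1 (r = 0.99) and Ube2l6 (r = 0.99). For Fgf15 they were Pls3 (r = 0.999), Zfp365 (r = 0.998) and Plekha3 (r = 0.998), and for Abcc2 they were Gm23105 (r = 0.99), Nkd1 (r = 0.99) and Prss36 (r = 0.98). Nr1h4 had r = 0.97 with Abcc2 and 0.86 with Slc51a, but 0.34 with Fgf15 and 0.023 with Slc51b. Slc51b had r = -0.79 with Slc10a2 and -0.066 with its partner Slc51a.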

How the data were processed

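The 6 libraries were LDL- and PBS-treated organoids of 3 mice. The authors removed ribosomal RNA, made stranded libraries, aligned reads to GRCm39 with STAR, counted them with featureCounts and deposited normalized counts, that is, read counts per gene divided by 1 size factor per library, a signal for which whole reads were recovered in 100% of values (within 0.02 of a whole number). One size factor scales all genes of a library alike, and the strand setting of the counting, the annotation version and the design behind the size factors are not given in the sources used here. Symbols, positions and exon lengths came from GENCODE M39, in which 54749 of 55416 identifiers were found. Log2 values of normalized counts plus 1, kept where the mean reached 10 (18459 genes), were compared with limma 3.58.1 (R 4.3.3, eBayes with a trend, two-sided), with the mouse as a block. Per the labels, each replicate number is 1 animal with both treatments, and such pairs' deviations from the group means correlated across genes at r = 0.48, 0.42 and 0.46. Intervals on ratios within a mouse are exact 95% intervals conditional on the total reads (scipy 1.17.1) and cover counting error only. Promoters came from RefSeq (GRCm38.p6).

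The 7 genes and all lists were chosen with earlier results of these data known. Named were the 7 genes, the called and the 3 most abundant genes of each of the 7 pathway lists and the 3 closest profiles. Some items of this rule are not reported here. The Slc51a to Slc51b ratio, the level bins and the motifs were chosen after the members' values had been seen. Alternatives were no block, other pseudocounts, filters and scalings, each mouse left out, edgeR 4.0.16 and DESeq2 1.42.0 on recovered reads, and other thresholds. The steps were tested on simulated data.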

Additional observations from a re-analysis of the deposited data

How the results depend on the processing

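Directions of the 6 tested members were the same under each of the 15 alternatives that gave a value for them. Calls depended on the pairing, on mouse 3 and on the threshold. In limma with no replicate block, the counts of all genes called were 162 higher and 73 lower, against 1048 and 639, 0 members were called in place of 4 (Slc10a2, Slc51a, Fgf15 and Abcc3, with unchanged log2 fold changes of 1.23, 1.04, 2.43 and 0.93), and the lists of receptors, FXR-responsive genes, transcription factors, ABC exporters, SLC10 and OATP carriers and FGF15 receptors had 0 called in place of 2, 4, 3, 4, 2 and 1. An adjusted p-value under 0.001 left 188 higher and 39 lower genes, 0 members, 1 FXR-responsive gene and 0 of each other list. Calls at any fold gave 1375 lower genes, 4 receptors and 5 transcription factors, and added Abcc2 (0.51). Quantile normalization ended the call of Slc10a2 (1.16). DESeq2 with no replicate block called all 4 members, 348 lower genes, 1 SLC10 or OATP carrier and 0 FGF15 receptors, and with the block 2 FGF15 receptors and an undefined adjusted p-value for Fgf15. edgeR with the replicate block called the 4.
Leaving out each mouse in turn gave 265 to 1604 higher and 77 to 1348 lower genes, 0 to 5 members, and log2 fold changes of 0.91 to 1.77 for Slc10a2, 0.92 to 1.16 for Slc51a, 2.12 to 2.68 for Fgf15, 0.40 to 0.66 for Abcc2 and 0.80 to 1.16 for Abcc3. It gave 0 to 3 receptors, 1 to 5 FXR-responsive genes, 0 to 3 transcription factors, 1 to 5 ABC exporters, 0 to 2 SLC10 or OATP carriers, 1 to 2 synthesis genes and 0 to 1 FGF15 receptors. No count was lower than the one without mouse 3. With a mean of at least 50, Fgf15 and Slc51b could not be tested. Depth limits Fgf15 and Fabp6, with at most 24 reads in a library. With 2 mice left, 1 residual degree of freedom per gene remained before moderation.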
